A study of Mus musculus with 6 samples.

Results

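Expression of 10 transcription factor genes of the haematopoietic stem cell network was described in sorted mouse bone marrow cells by Hmces genotype. The genes were Gata2, Tal1, Lmo2, Runx1, Erg, Fli1, Etv6, Meis1, Hlf and Mecom, taken as the rows of the deposited expression table with exactly these symbols. All 10 were found, out of 23235 genes in the table. Hmces knockout and wild-type (WT) cells were compared, with 3 libraries each. Per the labels, both groups were of strain C57BL/6 and aged 2 months, all cells were long-term haematopoietic stem cells (LT-HSCs) sorted from bone marrow, and RNA came from 1500 cells with Smart-seq2 amplification. No source used here gives the kind of Hmces allele, the antibody panel, or whether each library came from its own mouse. P-values therefore measure the spread between these samples only, and that spread may be technical. The tag 13bp stands in every title, also for WT, with no meaning stated, and the design text speaks of duplicates where the labels list 3 libraries for either genotype. HMCES binds and shields abasic sites in single-stranded DNA, and the comparison asks which transcripts differ between the knockout and WT cells.

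The 10 factors work as a network. GATA2, TAL1, LMO2, RUNX1, ERG and FLI1 occupy many of the same enhancers in blood progenitors, often each other's, and TAL1 and LMO2 sit in a complex that is bridged to DNA by GATA factors and E proteins and held together by LDB1. MEIS1 is a homeodomain partner of HOX and PBX proteins, ETV6 is a repressor of the ETS family needed for adult stem cells, HLF is a bZIP factor restricted to the most immature blood cells, and MECOM is a zinc finger factor required for long-term self-renewal. Most of these genes are shared with other lineages: Gata2 is used by mast cells and basophils, Tal1 and Lmo2 by erythroid cells, Fli1 and Erg by megakaryocytes and endothelium, and Runx1 by granulocytes and lymphocytes.

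Values were FPKM, fragments scaled to transcript length and to library size, so that levels of genes of different length can be set side by side. The low values of the table corresponded to between 9300000 and 14200000 fragments per library, an estimate that assumes fragments of 200 nt. The Hmces transcript, which the table names 8430410A17Rik, had 8.95, 0.222 and 6.95 FPKM in the knockout libraries, against 39.5, 45.4 and 41.0 FPKM in the WT libraries. It was thus lower in the knockout libraries but not absent from them. Knockout replicate 2 had the lowest Hmces value and also stood apart from the others on the first principal component of all tested genes, where it scored 67.0 and the other 5 libraries lay between -33.6 and 10.1. For 44.3% of tested genes its value lay outside the range of the other 5 libraries, against 24.4% to 37.5% for each of the others. Values without it, an alternative chosen after seeing the data for ratios, spreads and single list genes, stand beside the results that change with it.

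The label LT-HSC was compared with marker genes. Transcripts of progenitor markers that are low or absent in LT-HSCs were abundant in both genotypes. Flt3, the receptor gene of multipotent progenitors, averaged 141 ± 8.22 FPKM in knockout cells and 137 ± 15.1 FPKM in WT cells. Cd48, a marker of progenitors and mature blood cells, averaged 279 ± 24.1 FPKM in knockout and 179.6 ± 37.7 FPKM in WT cells, and Cd34 averaged 471 ± 22.1 FPKM in knockout and 487 ± 16.5 FPKM in WT cells (SD, n = 3 per group for each). Of the stem cell markers, Kit averaged 118 ± 20.7 FPKM in knockout and 117 ± 2.46 FPKM in WT cells. Slamf1, which encodes the LT-HSC marker CD150, averaged 2.43 ± 1.12 FPKM in knockout and 3.46 ± 1.47 FPKM in WT cells (SD, n = 3 each). Fgd5 did not exceed 1.23 FPKM in any library and Hoxb5 stayed below 1 FPKM in all 6. In both genotypes these markers go against a population of LT-HSCs alone, so the cells are called sorted marrow cells or, by genotype, knockout and WT cells.

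**Figure D1:**
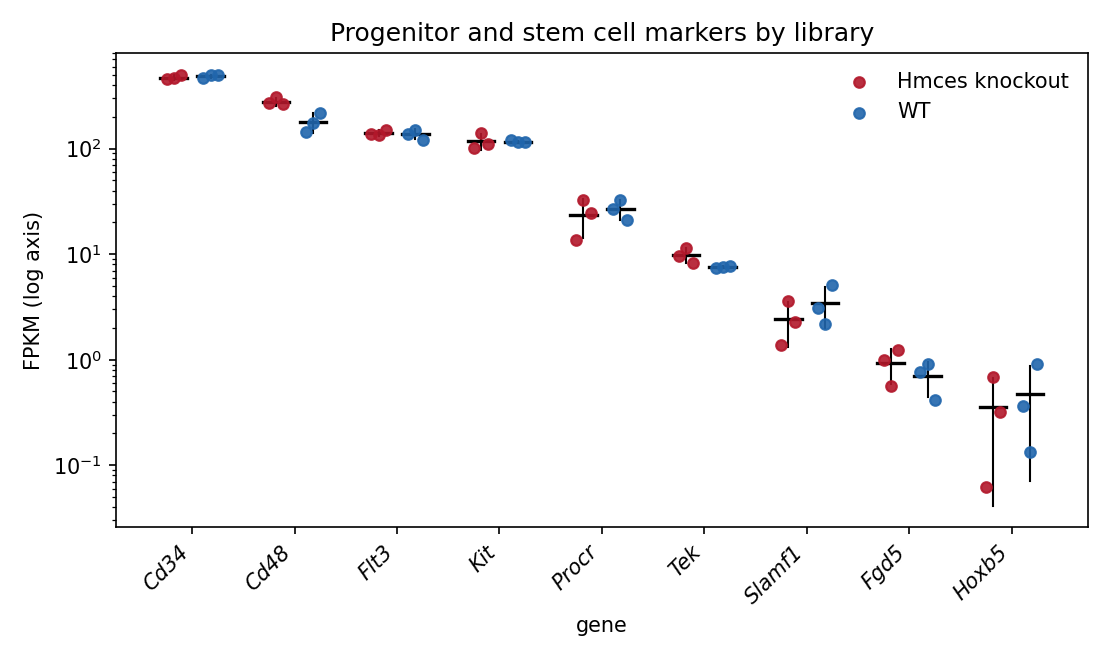
FPKM (log axis) of progenitor and stem cell marker genes in Hmces knockout (red, left) and WT (blue, right) libraries, with 1 point per library, a bar at the mean and a line for the SD (n = 3). Flt3, Cd48 and Cd34 lie above 100 FPKM in every library, whereas Slamf1 stays at or below 5.08 FPKM.

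The starts of these genes are shown because the gene level pools transcripts from all of them. In the table of RefSeq promoters (GRCm38.p6) used here, 8 of the 10 genes were matched, with 14 starts in all. Entries for Lmo2 and Fli1 were not used here. Runx1 has a distal start, the main one of definitive blood cells, and a proximal start, which give proteins with different ends, and Mecom has a distal start for the long form with a PR domain and a proximal start for the EVI1 form. The 250 bases before each start were searched on both strands for short motifs of the network's own families: GATAA (GATA factors), GGAAG (ETS factors), TGNGGT (RUNX factors), CAGNTG (E-boxes of TAL1 and E proteins), TGACAG (MEIS factors) and TTANGTAA (HLF), none of which contains another. Of 32851 mouse promoter windows of this length, 22.6% hold GATAA, 64.1% GGAAG, 40.1% TGNGGT, 44.8% CAGNTG, 15.9% TGACAG and 2.06% TTANGTAA. The sequences below run 5′ to 3′ on the gene's strand, stop where an annotated exon begins, and have the motif matches in capitals. They are both Runx1 starts, the Erg start with the most matches, and Meis1, the factor with the most even level in WT cells.
Runx1 distal, chr16:92826150-92826324, minus strand: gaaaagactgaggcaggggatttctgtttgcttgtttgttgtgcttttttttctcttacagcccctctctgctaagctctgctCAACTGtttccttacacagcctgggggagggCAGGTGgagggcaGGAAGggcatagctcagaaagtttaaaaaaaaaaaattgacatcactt
Runx1 proximal, chr16:92697330-92697579, minus strand: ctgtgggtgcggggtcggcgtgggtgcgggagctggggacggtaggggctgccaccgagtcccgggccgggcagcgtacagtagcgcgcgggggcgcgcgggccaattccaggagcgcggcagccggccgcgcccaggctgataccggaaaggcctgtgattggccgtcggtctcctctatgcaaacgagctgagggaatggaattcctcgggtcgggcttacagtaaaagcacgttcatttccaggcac
Erg downstream start, chr16:95459349-95459598, minus strand: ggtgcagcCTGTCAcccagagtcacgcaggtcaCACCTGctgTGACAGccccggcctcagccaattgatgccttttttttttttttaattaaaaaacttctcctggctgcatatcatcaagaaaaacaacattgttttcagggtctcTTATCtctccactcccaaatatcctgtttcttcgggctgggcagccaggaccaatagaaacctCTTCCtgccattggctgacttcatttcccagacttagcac
Meis1, chr11:19018986-19019219, minus strand: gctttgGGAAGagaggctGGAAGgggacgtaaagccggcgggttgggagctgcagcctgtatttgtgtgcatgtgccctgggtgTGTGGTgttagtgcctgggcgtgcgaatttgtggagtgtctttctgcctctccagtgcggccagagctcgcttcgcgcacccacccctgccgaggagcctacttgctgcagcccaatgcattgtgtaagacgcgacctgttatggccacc
The distal Runx1 stretch holds 3 matches, 2 of the E-box and 1 of the ETS motif, and the proximal stretch holds 0. The Erg stretch holds 5 matches, 2 of the MEIS motif and 1 each of the E-box, GATA and ETS motifs, and the other 2 Erg windows hold 2 and 0. The Meis1 stretch holds 3, 2 of the ETS and 1 of the RUNX motif. These matches describe letters and do not show binding.

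None of the 10 factors differed between Hmces knockout and WT cells by the test used. Tests were made with limma on log2(FPKM + 1) over all 11532 genes with a mean of at least 1 FPKM, which included all 10 factors. Of the 10, 0 were called at an adjusted p under 0.05, where 0.113% of all tested genes were called (0.104% higher and 0.00867% lower in knockout cells), and 0 had an unadjusted p under 0.05, where 9.16% of all tested genes did (4.32% higher, 4.84% lower). For 0 of 10 did the knockout and WT values fail to overlap, where 15.8% of tested genes had groups that did not overlap (7.47% higher, 8.34% lower). The log2 fold change was above 0 for 5 of the 10 factors and for 48.1% of all tested genes, and the median was -0.01 for both. Without knockout replicate 2, 3 were positive and 7 negative, with a median of -0.10 and again 0 called. The Hmces transcript itself was not called by this test with all 6 libraries either (limma adjusted p = 0.289). Its groups did not overlap and its log2 fold change was -3.2, so even a large difference can go uncalled here. In bulk samples, a difference in the number of cells of a type cannot be told apart from a difference in RNA per cell.

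The order of the levels was nearly the same in both genotypes. Lmo2, Meis1, Etv6, Runx1 and Mecom took ranks 1, 2, 5, 6 and 10 in each of the 6 libraries. Gata2 and Fli1 shared ranks 3 and 4, with Fli1 above Gata2 at the mean in knockout cells and Gata2 above Fli1 in WT cells, and the values of the pair overlapped within each genotype. Without knockout replicate 2, Gata2 (81.4 FPKM) was above Fli1 (70.5 FPKM) in knockout cells too, and Erg moved below Tal1 and Hlf. Tal1, Erg and Hlf shared ranks 7 to 9, with means between 10.4 and 11.8 FPKM in knockout cells and between 9.88 and 10.9 FPKM in WT cells, and their values overlapped. In WT cells every other pair of neighbours in the order was separated in all 3 libraries with no overlap of values. In knockout cells Runx1 over Erg and Tal1 over Mecom held in each library, but the values of these pairs overlapped between libraries. Against all tested genes, the WT level lay at percentile 97.6 for Lmo2 and 92.9 for Meis1, and at 31.7 for Mecom.

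**Figure D2:**
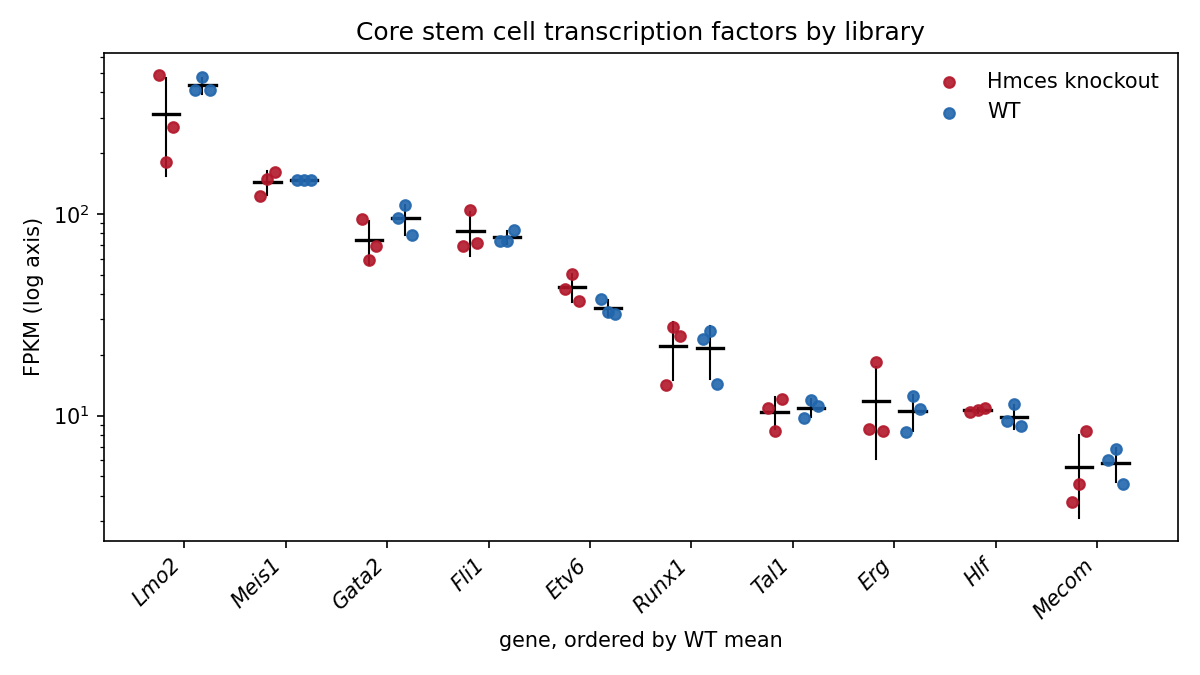
FPKM (log axis) of the 10 factors in Hmces knockout (red, left) and WT (blue, right) libraries, ordered by WT mean, with 1 point per library, a bar at the mean and a line for the SD (n = 3). The groups overlap for each factor, and the widest spread in knockout libraries is that of Lmo2, from 179.9 to 487 FPKM.

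Lmo2, which encodes the LIM-only bridging protein of the TAL1 complex, was the most abundant factor. It was read at 487, 179.9 and 269.8 FPKM in knockout libraries, against 409, 478 and 410.3 FPKM in WT libraries. Knockout replicates 2 and 3 lay below all WT libraries and knockout replicate 1 above them. The mean was 312 ± 158 FPKM in knockout and 433 ± 39.6 FPKM in WT cells (SD, n = 3 each), a log2 fold change of -0.59 with a 95% interval from -1.31 to 0.14 (limma adjusted p = 0.613). Without knockout replicate 2 it was -0.25, and without knockout replicate 1 it was -0.97 (limma adjusted p = 0.217). Lmo2 alone made up 56.4%, 29.4% and 40.2% of the summed FPKM of the 10 factors in knockout libraries, against 49.9%, 52.5% and 51.2% in WT libraries. The share averaged 48.3% in knockout cells without replicate 2 and 51.2% in WT cells. The other 9 factors together summed to 376, 432 and 402 FPKM in knockout libraries and to 412, 433 and 390.3 FPKM in WT libraries, an even total next to that of Lmo2.

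Tal1, the basic helix-loop-helix factor of the same complex, was far lower. It was read at 10.9, 8.35 and 12.0 FPKM in knockout libraries and at 9.68, 11.9 and 11.2 FPKM in WT libraries, with overlapping groups. Its log2 fold change was -0.07 with an interval from -0.59 to 0.45 (limma adjusted p = 0.944). The level of Lmo2 was 44.8, 21.6 and 22.4 times that of Tal1 in knockout libraries and 42.3, 40.3 and 36.7 times in WT libraries (exact two-sided permutation p = 0.4). With 3 against 3 libraries that test cannot go below 0.1. The ratio averaged 33.6 in knockout cells without replicate 2 and 39.8 in WT cells, and the log2 fold change of Tal1 was 0.067 without that library.

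Gata2, the GATA factor of stem and early progenitor cells, was read at 93.8, 59.0 and 69.0 FPKM in knockout libraries and at 95.3, 111 and 78.7 FPKM in WT libraries. As for Lmo2, knockout replicates 2 and 3 lay below each WT library, while replicate 1 lay within the WT range. The mean was 73.9 ± 17.9 FPKM in knockout and 94.9 ± 15.9 FPKM in WT cells (SD, n = 3 each), a log2 fold change of -0.37 with an interval from -0.83 to 0.10 (limma adjusted p = 0.621). It stayed negative in each of 15 alternative fits, between -0.55 and -0.22. Fits that changed only the gene filter, the variance estimate or the replicate block could not move it. Gata1, the related factor of erythroid and megakaryocytic cells, averaged 33.2 ± 8.28 FPKM in knockout and 28.8 ± 3.99 FPKM in WT cells (SD, n = 3 each). The ratio of Gata2 to Gata1 was 3.92, 1.48 and 1.93 in knockout libraries and 3.93, 3.46 and 2.62 in WT libraries, with overlapping groups (exact permutation p = 0.3), and without knockout replicate 2 it averaged 2.92 in knockout and 3.34 in WT cells.

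Of the ETS factors, Fli1 was read at 69.6, 105 and 71.4 FPKM in knockout libraries and at 73.4, 73.7 and 83.5 FPKM in WT libraries. Knockout replicate 2 was the highest of all and the other knockout libraries were the lowest. Its log2 fold change of 0.07, with an interval from -0.34 to 0.48 (limma adjusted p = 0.932), became -0.12 without that library. Erg, the close relative of Fli1, was read at 8.58, 18.3 and 8.37 FPKM in knockout libraries and at 8.28, 12.5 and 10.8 FPKM in WT libraries. Again knockout replicate 2 was the highest, and the log2 fold change of 0.08 (interval from -0.68 to 0.84, limma adjusted p = 0.964) became -0.26 without it. Fli1 exceeded Erg 8.11, 5.72 and 8.54 times in knockout libraries and 8.87, 5.91 and 7.74 times in WT libraries, so that this ratio averaged 7.45 ± 1.52 in knockout and 7.51 ± 1.49 in WT cells (SD, n = 3 each; exact permutation p = 1.0).

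Etv6 had the smallest p of the 10. It was read at 42.6, 50.5 and 36.9 FPKM in knockout libraries and at 37.9, 32.7 and 31.9 FPKM in WT libraries, and the groups overlapped by 1 library on each side. The mean was 43.3 ± 6.82 FPKM in knockout and 34.2 ± 3.22 FPKM in WT cells (SD, n = 3 each), a ratio of 1.27 and a log2 fold change of 0.33 with an interval from -0.06 to 0.71 (unadjusted p = 0.0867, limma adjusted p = 0.597). By unadjusted p it ranked 1672 of 11532 genes. The log2 fold change stayed positive in each of 15 alternative fits, between 0.21 and 0.43, though some of these fits could not move it, as for Gata2.

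Runx1, which encodes the DNA-binding subunit of core binding factor, was read at 14.1, 27.5 and 24.8 FPKM in knockout libraries and at 24.0, 26.4 and 14.4 FPKM in WT libraries. In each genotype 1 library lay near 14 FPKM and the other 2 between 24.0 and 27.5 FPKM. The log2 fold change was 0.03 with an interval from -0.70 to 0.75 (limma adjusted p = 0.989), and without knockout replicate 2 it was -0.15. Its spread between WT libraries, an SD of 0.45 on the log2 scale, was above that of 89.9% of 3744 genes within 2-fold of its level. The table gives 1 value per gene, so the 2 Runx1 starts printed above cannot be told apart.

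Meis1 was read at 122, 149 and 160.3 FPKM in knockout libraries, against nearly identical values of 148, 147 and 146 FPKM in WT libraries. The WT libraries thus lay inside the knockout range. Its log2 fold change of -0.04 had the narrowest interval of the 10, from -0.34 to 0.25 (limma adjusted p = 0.942), which corresponds to ratios between 0.791 and 1.19. Hoxa9, which encodes a HOX partner of MEIS1, averaged 15.0 ± 4.53 FPKM in knockout and 16.6 ± 2.75 FPKM in WT cells (SD, n = 3 each).

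Hlf and Mecom, the factors most restricted to stem cells, were the least abundant with Tal1 and Erg. Hlf was read at 10.4, 10.6 and 10.9 FPKM in knockout libraries, a narrow range that lay inside the WT values of 9.43, 11.4 and 8.85 FPKM. The log2 fold change was 0.10 with an interval from -0.38 to 0.58 (limma adjusted p = 0.908). Mecom was read at 3.74, 4.57 and 8.37 FPKM in knockout libraries and at 6.03, 6.81 and 4.60 FPKM in WT libraries, with knockout replicate 3 above and the other 2 knockout libraries below all WT libraries. At the estimated depth this is between 35.8 and 89.3 fragments per kilobase of transcript. The interval of its log2 fold change, from -0.87 to 0.66 around -0.10 (limma adjusted p = 0.944), was among the widest of the 10.

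**Figure D3:**
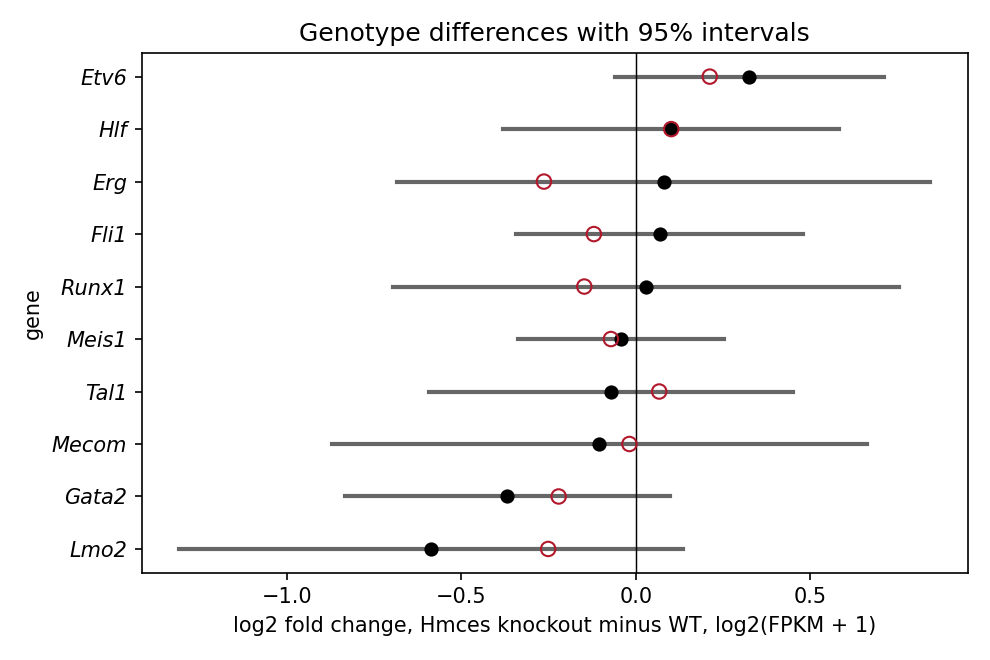
Log2 fold change of each factor, Hmces knockout minus WT on log2(FPKM + 1), from the limma fit with all 6 libraries (black points) and its 95% interval (grey lines), with the value without knockout replicate 2 as red circles. Every interval includes 0, and Erg, Fli1, Runx1 and Tal1 change sign without that library.

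The intervals bound what these libraries can show. Over the 10 factors they ran from a ratio of 0.404 at the lower end for Lmo2 to 1.79 at the upper end for Erg, both as ratios of FPKM + 1, which understate the range in FPKM for the low factors. A p that misses the threshold does not show that the levels were equal.

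Knockout replicate 2 carried much of the variation among the factors. It had the highest value of the 6 libraries for Runx1, Erg, Fli1 and Etv6 and the lowest for Gata2, Tal1 and Lmo2, 7 of 10 factors, where 44.3% of all tested genes lay outside the other 5 libraries in the same way. On the log2 scale its difference from the WT mean was 0.77 for Erg, 0.55 for Etv6, 0.45 for Fli1 and 0.38 for Runx1, and -1.26 for Lmo2, -0.66 for Gata2 and -0.35 for Tal1. Relatives did not all do the same: Gata1 (39.9 FPKM) and Gata3 (8.63 FPKM) were at their highest of the 6 libraries there, and the ETS gene Gabpa (10.4 FPKM) at its lowest. The same library read long transcripts higher. Its median difference from the WT mean was 0.16 for the longest of 5 equal groups of genes by coding transcript length, from 4876 nt, and -0.14 for the shortest group, up to 1735 nt. Lmo2, with a longest transcript of 1706 nt, belongs to the shortest group, and Runx1 and Etv6 belong to the longest, as do Meis1, Hlf and Mecom, which were not extreme in it. Gata2 and Tal1, low in this library, belong to length group 4, whose median was 0.079, and Erg and Fli1 to length group 3. Other libraries differed by length too, by less. Knockout replicate 3 had medians of 0.068 for the longest and -0.081 for the shortest group, and WT replicate 3 of 0.046 and -0.040. The order was reversed in knockout replicate 1, at -0.063 and 0.0063, in WT replicate 2, at -0.00084 and 0.064, and in WT replicate 1, at -0.026 and -0.011. The part of transcript length in the values of the 6 libraries was not tested. Knockout replicate 1 was extreme for 5 factors, highest for Lmo2 and lowest for Runx1, Fli1, Meis1 and Mecom. Of all tested genes, 37.5% lay outside the other 5 libraries in it. Knockout replicate 3 was highest for Tal1, Meis1 and Mecom, where 31.6% of all tested genes lay outside the other 5 libraries.

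**Figure D4:**
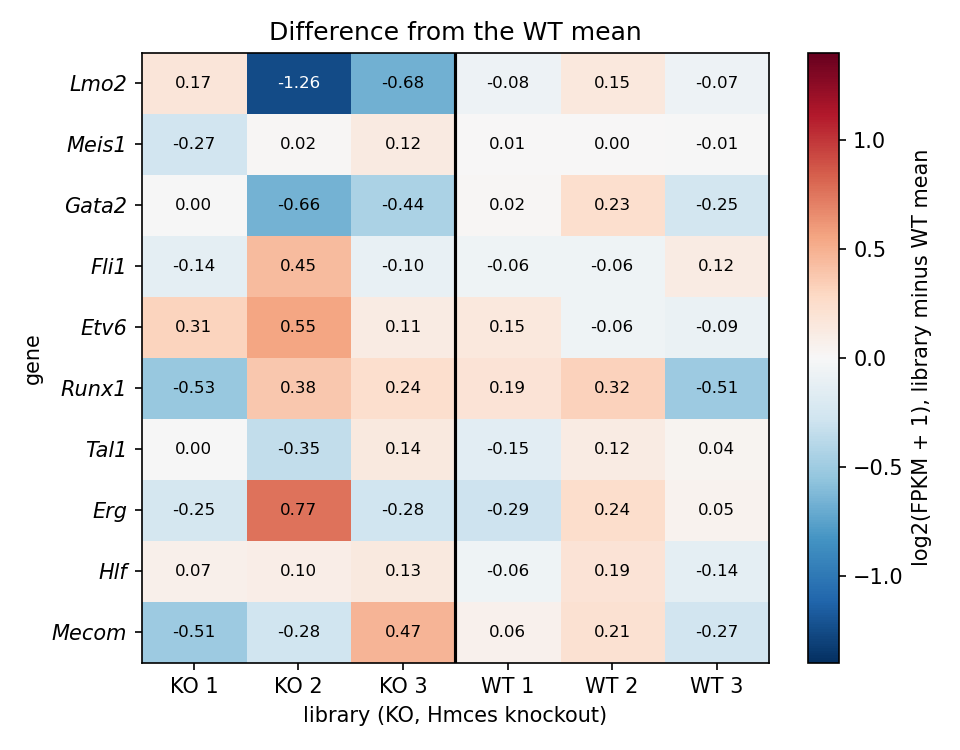
Difference of each library from the WT mean on log2(FPKM + 1) for the 10 factors, with Hmces knockout libraries on the left and WT libraries on the right. Knockout replicate 2 holds both the most negative value, -1.26 for Lmo2, and the most positive, 0.77 for Erg.

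Values varied more among knockout than among WT libraries. The SD on the log2 scale was larger among knockout libraries for 9 of the 10 factors, all but Hlf, with a median of 0.33 in knockout and 0.16 in WT libraries. Over all tested genes it was larger among knockout libraries for 63.8%, with medians of 0.31 in knockout and 0.23 in WT libraries. When knockout replicate 2 was left out, it was larger among knockout libraries for 6 of the 10 factors and for 49.7% of all tested genes. That sets an SD of fewer knockout libraries against an SD of all WT libraries. These shares therefore cannot be read against an even split, and do not show that the spreads were equal. Lmo2 had an SD of 0.72 among knockout libraries, above 92.2% of 476 genes of like level, and 0.13 among WT libraries, above 54.6% of them.

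Cofactors and close relatives of the 10 factors gave no call either. Of 42 symbols listed, 41 were in the table, as Spi1 and Sfpi1 name the same gene, which the table holds as Sfpi1. Of the 41, 39 were tested, with 0 called by limma over all genes. Of these, 16 lay above and 23 below 0 in log2 fold change, the median being -0.07, beside -0.01 for all tested genes. Without knockout replicate 2, 19 lay above and 20 below 0, with 0 called. An unadjusted p under 0.05 was reached by 4 of the 39, 2 on either side, where 9.16% of all tested genes reached it. Groups did not overlap for 3 of the 39, where this held for 15.8% of all tested genes. Ldb1, which encodes the protein that joins TAL1 and LMO2 complexes on distant sites, was read at 9.91, 9.70 and 9.59 FPKM in knockout libraries and at 13.7, 15.5 and 18.3 FPKM in WT libraries. Its groups did not overlap, and the log2 fold change was -0.64 (SE 0.20, limma adjusted p = 0.469). Tcf3, which encodes the E proteins E12 and E47, had 22.0, 13.2 and 11.6 FPKM in knockout libraries and 26.7, 48.9 and 20.8 FPKM in WT libraries (log2 fold change -0.96, SE 0.35, limma adjusted p = 0.499). Lyl1, the relative of Tal1, was the most abundant of this list, at 159 ± 7.10 FPKM in knockout and 177 ± 20.6 FPKM in WT cells (SD, n = 3 each), and exceeded Tal1 15.1, 18.1 and 13.5 times in knockout libraries and 19.0, 16.4 and 13.8 times in WT libraries.

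Among the relatives, Ets1, an ETS factor of lymphoid cells, was read at 8.99, 13.7 and 13.1 FPKM in knockout libraries and at 5.50, 4.94 and 6.80 FPKM in WT libraries. Its groups did not overlap, the ratio of means was 2.08 and the log2 fold change was 0.93 (SE 0.26, limma adjusted p = 0.385). Elf1, named here after its values were seen, was the only other tested member of the list that was higher in all knockout libraries, at 73.6 ± 6.22 FPKM in knockout and 60.2 ± 4.38 FPKM in WT cells (SD, n = 3 each; limma adjusted p = 0.563). Nfil3, a bZIP repressor that binds the same sites as HLF, had 3.92, 10.5 and 5.69 FPKM in knockout libraries and 1.44, 1.95 and 4.47 FPKM in WT libraries (log2 fold change 1.09, SE 0.44, limma adjusted p = 0.532), and its log2 fold change was 0.75 without knockout replicate 2. Tef, of the same PAR bZIP group as Hlf, had 7.76, 1.43 and 8.03 FPKM in knockout libraries and 1.30, 2.30 and 1.10 FPKM in WT libraries (limma adjusted p = 0.553), so that knockout replicate 2 lay within the WT range. Tef had a log2 fold change of 1.20, and 1.82 without that library (limma adjusted p = 0.290). Ctbp1, which encodes a corepressor bound by MECOM, averaged 44.0 ± 10.4 FPKM in knockout and 57.2 ± 3.70 FPKM in WT cells (SD, n = 3 each; limma adjusted p = 0.569).

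**Figure D5:**
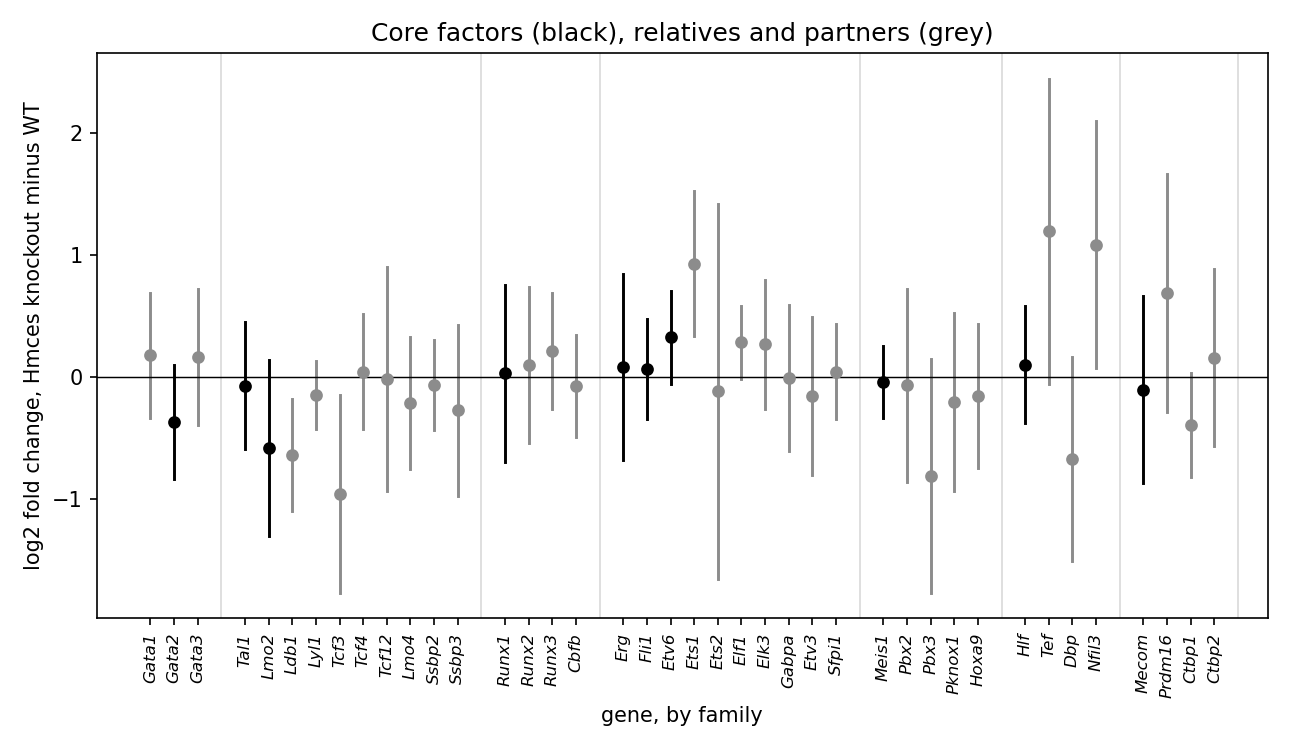
Log2 fold change, Hmces knockout minus WT, with 95% limma intervals for the 10 factors (black) and relatives and partners (grey), grouped from left to right as GATA, TAL1 complex, RUNX, ETS, MEIS and PBX, PAR bZIP and MECOM genes. The intervals of Ets1, Nfil3, Ldb1 and Tcf3 do not include 0 before adjustment over all genes.

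Known targets of the network also gave 0 calls by limma over all genes among 24 tested. They came from 26 symbols listed, again with both Spi1 and Sfpi1, and some are also in the list above. The log2 fold change was above 0 for 12 and below 0 for 12 of them, the median being -0.02. Of the 24, 1 had an unadjusted p under 0.05, where 9.16% of all tested genes did. Groups did not overlap for 1 of the 24, where this held for 15.8% of all tested genes. Without knockout replicate 2, 9 targets lay above and 15 below 0, with 0 called. The target with an unadjusted p under 0.05 was Pf4, the platelet factor 4 gene, at 407, 541 and 199.2 FPKM in knockout libraries and 645, 521 and 892 FPKM in WT libraries (log2 fold change -0.92, SE 0.35, limma adjusted p = 0.512), with overlapping groups. Pf4 had a log2 fold change of -1.23 without knockout replicate 2 (limma adjusted p = 0.464). Tek, the receptor gene of angiopoietin signalling in quiescent stem cells, was the 1 target higher in all knockout libraries, at 9.77 ± 1.61 FPKM in knockout and 7.59 ± 0.165 FPKM in WT cells (limma adjusted p = 0.703). Itga2b averaged 101 ± 17.8 FPKM in knockout and 88.9 ± 6.03 FPKM in WT cells, and Hif1a averaged 25.8 ± 3.46 FPKM in knockout and 22.0 ± 7.02 FPKM in WT cells (SD, n = 3 per group for each of these 3 genes). Cebpa, a myeloid factor gene, was listed at 4.46, 0 and 0.660 FPKM in knockout libraries and at 2.19, 5.48 and 2.07 FPKM in WT libraries.

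Markers of other cell types that use these factors were read beside them. The 15 granulocyte and monocyte markers summed to between 19500 and 25930 FPKM in knockout libraries and between 7116 and 10810 FPKM in WT libraries, with 2 members, Mpo and Ctsg, called by limma, where 0.113% of all tested genes were called. Of the 15, 13 had an unadjusted p under 0.05, all higher in knockout cells, and for 12 the groups did not overlap, where 4.32% and 7.47% of all tested genes were higher by these measures. Macrophage markers had the opposite sign, with 8 of 8 tested below 0 in log2 fold change, a median of -1.58 and 0 called by limma (2 with an unadjusted p under 0.05). Of all tested genes, 48.1% lay above 0, and 4.84% were lower in knockout cells at an unadjusted p under 0.05. The macrophage markers summed to between 6.89 and 51.8 FPKM in knockout and between 25.0 and 130 FPKM in WT libraries. Megakaryocyte and platelet markers summed to between 459.8 and 881 FPKM in knockout and between 796 and 1192 FPKM in WT libraries, with Gp6 at 0 in all 6. Without Pf4 these markers summed to between 239 and 340 FPKM in knockout and between 275 and 299.5 FPKM in WT libraries. Of the mast cell, basophil and eosinophil markers, Mcpt4 and Tpsb2 were at 0 in all 6, and the list summed to between 74.0 and 1069 FPKM in knockout and between 34.3 and 153 FPKM in WT libraries. The upper end was Prg2, an eosinophil granule gene, at 956 FPKM in knockout replicate 1. Without Prg2 the list summed to between 51.8 and 313 FPKM in knockout and between 23.0 and 148 FPKM in WT libraries. Mcpt8, a basophil protease gene, was highest in knockout replicate 3, at 122 FPKM, and next in WT replicate 2, at 38.6 FPKM, where Gata2 was at 69.0 FPKM in knockout replicate 3 and at its highest, 111 FPKM, in WT replicate 2. Erythroid markers summed to between 785 and 985 FPKM in knockout and between 838 and 940.5 FPKM in WT libraries, mostly Car2, and without it to between 68.2 and 288 FPKM in knockout and between 111 and 149 FPKM in WT libraries. B cell markers summed to between 69.1 and 129 FPKM in knockout and between 59.6 and 75.5 FPKM in WT libraries, and T and NK cell markers to between 398 and 502 FPKM in knockout and between 327 and 453 FPKM in WT libraries, of which Nkg7 made up all but 34.6 to 48.3 FPKM in knockout and 28.8 to 35.2 FPKM in WT libraries. The 11 endothelial and stromal markers summed to between 61.1 and 71.7 FPKM in knockout and between 49.1 and 71.4 FPKM in WT libraries. Of these, Cdh5, Kdr, Stab2 and Col1a1 stayed below 1 FPKM in each library, while Pecam1 averaged 25.6 FPKM in knockout and 22.3 FPKM in WT cells, Emcn 25.1 FPKM in knockout and 19.3 FPKM in WT cells, and Pdgfrb 14.0 FPKM in knockout and 9.27 FPKM in WT cells. The part of these cells in the levels of the 10 factors was not tested.

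Genes with the pattern most like that of Etv6 and Lmo2, the factors with the smallest p on either side, were looked up among 8469 genes with a mean of at least 5 FPKM. Over the 6 libraries Pearson's r of log2 values with Lmo2 was 0.998 for Fnta, 0.994 for Srsf2 and 0.986 for Gemin8. Fnta was read at 113, 37.7 and 58.4 FPKM in knockout libraries and at 92.7, 108 and 86.5 FPKM in WT libraries, so that it too was lowest in knockout replicate 2. With Etv6 r was 0.985 for Ifngr1, 0.984 for Fundc1 and 0.984 for Nop14. Ifngr1, the interferon gamma receptor gene, was read at 147, 161 and 130.3 FPKM in knockout libraries and at 129, 119 and 111 FPKM in WT libraries, highest like Etv6 in knockout replicate 2. These are descriptions from 6 libraries of which 1 stands apart.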

How the data were processed

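RNA sequencing of sorted bone marrow cells was deposited by the authors as FPKM per gene and library, estimates scaled to transcript length and library size. Per the submitters' processing notes, TopHat2 2.1.1 and Cufflinks 2.2.1 were used with the build mm9. Strand use in counting is not given in the sources used here. Genes with a mean of at least 1 FPKM (11532 of 23235) were taken to log2(FPKM + 1) and analysed by limma 3.58.1 (R 4.3.3), with a mean-variance trend and genotype as the only term. P-values are two-sided and adjusted by the Benjamini-Hochberg method. Fold changes are knockout minus WT and understate the change of low genes. Single ratios were compared by exact permutation tests. The fit was also run on simulated data, in which each gene had the same spread in all libraries. That check holds no library that stands apart and no larger spread in knockout libraries, so it does not cover these features. The factors and gene lists were chosen with earlier results of these data known. All 10 factors are named, with called genes or the 3 smallest p-values per side and the highest WT level of each list, though some are not reported here. Level percentiles are means over the 3 libraries of a genotype. Depth was estimated from the commonest low value of 982 genes with a single transcript over 1500 nt, and covers counting error only. Promoter sequences are from RefSeq, of a later build than the authors' mm9.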

Additional observations from a re-analysis of the deposited data

How the results depend on the processing

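The count of core factors called by limma was 0 in each of 15 alternative fits, with the lowest adjusted p at 0.217. The count over all genes was less stable. Against 13 in the fit reported, it was 1 where low genes were kept, 6 without a trend in the variance, 20 with robust estimation and 32 without small RNA genes, and between 2 and 19 when 1 library was left out (5 without knockout replicate 2, 2 without knockout replicate 3, 7 without WT replicate 2). With the replicate number as a block it was 2, both also called without the block. Deviations from the genotype mean over tested genes correlated at 0.080, 0.011 and 0.035 between same-numbered knockout and WT libraries. Between differently numbered libraries these correlations ran from -0.083 to 0.048. All were small, and the numbers were not treated as pairs. Left-out libraries gave between 1 and 3 factors whose groups did not overlap, but groups of fewer libraries separate more easily. The share of all tested genes in these smaller comparisons was not computed, so these counts say nothing about the factors in particular. Between 6 and 10 factors kept their knockout rank when 1 knockout library was left out, 6 of them without knockout replicate 2, and between 8 and 10 their WT rank. Leaving out 1 library at a time, the log2 fold change ran from -0.23 to 0.31 for Runx1, -0.26 to 0.26 for Erg, -0.12 to 0.17 for Fli1, -0.17 to 0.067 for Tal1, -0.13 to 0.070 for Meis1 and -0.39 to 0.10 for Mecom, and the ratio of means from 0.880 to 1.21, 0.807 to 1.28, 0.917 to 1.15, 0.880 to 1.05, 0.921 to 1.05 and 0.715 to 1.11 in the same order. Meis1 also changed side as a share of FPKM without small RNA genes, with a ratio of 1.01. Lmo2, Gata2, Etv6 and Hlf kept their sign under each alternative. Alternatives that changed only the gene filter, the variance estimate or the replicate block could not change a sign. The causes of these changes were not tested. With 3 libraries a group, the width of the intervals given limits what can be said of each factor.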
